A study of Mus musculus with 6 samples.

Results

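The TRAV7 family of TCRα variable genes was followed in CD4+ T cells that bound a tetramer of P2, a peptide of the retinal protein IRBP. A chain was counted when a productive TRA contig carried a V gene whose name begins with TRAV7 followed by a hyphen, D- or N-. This rule took in 124 contigs that carried 11 of the 85 TRA V genes seen, among them TRAV7-1 and TRAV7D-3. The contigs lay in 123 of the 999 cells with a productive TRA, which were 15 of 186 cells in uveitis dataset 1, 31 of 330 cells in uveitis dataset 2 and 77 of 483 cells without uveitis. A productive TRB was found in 119 of these cells, and they made up 98 of 782 clonotypes. The uveitis datasets held 12 and 14 of these, and the library without uveitis held 72. A clonotype here was a TRA and a TRB chain defined by their V and J genes and the nucleotides of their CDR3, so that a cell with more than 1 TRA counted once for each TRA. All other TRA therefore include the further chains of TRAV7 cells.

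All cells came from Aire GW/+ Lyn-/- mice at 9 wk of age, which carry 1 GW allele of Aire and lack the kinase Lyn in every group. Cells of eye-draining LN were pooled before the sort, from 7 mice in one uveitis library and 8 in the other, and from 16 mice without uveitis. They were enriched with P2 tetramers of 2 colours and sorted as TCRβ+CD4+CD8- cells without markers of B cells or myeloid cells. The sources used here do not say which uveitis dataset held which number of mice, or which mouse a cell came from. CD4 and other markers of the sort were not checked, since the contigs hold only TCR chains.

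Aire is a transcriptional regulator through which the thymus displays proteins of other organs, and uveitis is inflammation within the eye. The TCRα chain is assembled in the thymus by joining 1 V segment to 1 J segment, with bases trimmed and added at the joint. That joint encodes CDR3α, the loop that lies over the peptide, whereas the V segment alone encodes CDR1α and CDR2α. Both TRA alleles can rearrange, and a cell can replace one rearrangement by another that uses a V segment further upstream and a J segment further downstream. In mice the central part of the V locus is duplicated, and the letters D and N mark the copies.

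The GENCODE annotation of GRCm38 held 13 TRAV7 genes, all on the plus strand of chromosome 14 and each with 2 coding exons for the leader and the V domain. TRAV7-1 was the first of them, at chr14:52654817-52655328, which starts 1565.7 kb upstream of the constant gene Trac. TRAV7D-3 lay at chr14:52744249-52744840 and TRAV7-6, the last, at chr14:53716716-53717291. The coding bases of the 13 genes were 81.3 to 100% identical over their 78 pairs, with a median of 86.9%. TRAV7-1 had no close copy, since its nearest relative TRAV7N-4 differed at 25 bases, whereas TRAV7D-3 differed from TRAV7-3 at only 2 bases. TRAV7-2 and TRAV7N-5 were assigned to no productive contig, and TRAV7-2 differed from TRAV7D-2 at 1 base while TRAV7N-5 had the same coding bases as TRAV7D-5. Assignments between such copies are therefore uncertain.

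The V segments differed in the bases that they can give to CDR3α. The germline ends below are shown because they sort the family into its joining types. Each runs from the codon of the conserved cysteine to the last coding base, with the bases after the shared start in capitals.
TRAV7-1: tgtgcagTGAGCA
TRAV7D-2: tgtgcagCAAGCA
TRAV7-4: tgtgcagCTAGTGAGCA
TRAV7N-4: tgtgcagTTAGTGAGCA
The end of TRAV7-1, at chr14:52655316-52655328, was shared by 8 genes, including TRAV7D-3, TRAV7-3, TRAV7-5 and TRAV7-6, and these gave 46 of the 98 clonotypes. The end of TRAV7-4 was also that of TRAV7D-4 and was found in 25 clonotypes. TRAV7D-2 alone gave 22 clonotypes and TRAV7N-4 gave 5.

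The 3 libraries held 5302, 7439 and 21408 UMIs, the counts of captured mRNA molecules, in 676, 800 and 1648 contigs of datasets 1 and 2 and without uveitis. Their barcodes numbered 212, 365 and 512. The uveitis dataset 2 and the library without uveitis shared 1 barcode, which had no TRAV7 chain, and no other pair of libraries shared any. A TRAV7 contig had a median of 4 UMIs in dataset 1, with a range of 1 to 13. The median was 5 in dataset 2 (range 1 to 27) and 9 without uveitis (range 1 to 51). All other TRA contigs had medians of 5, 4 and 7. The TRAV7 contigs resting on 1 UMI were 2 of 15, 3 of 31 and 1 of 78. Another 21 TRAV7 contigs were not marked productive and were not counted.

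TRAV7 took a smaller share of the cells in both uveitis libraries than without uveitis. It was carried by 8.06% of cells with a TRA in dataset 1 (exact 95% interval 4.58 to 13.0) and by 9.39% in dataset 2 (6.47 to 13.1). Without uveitis the share was 15.9% (12.8 to 19.5). The uveitis libraries averaged 8.73% ± 0.940 (SD, n = 2), and the library without uveitis lay above both. An SD of 2 pools gives little measure of the spread between pools. The intervals of both uveitis libraries overlapped slightly with the interval without uveitis. The intervals, here and throughout, cover counting error only. With 1 library of 1 pool without uveitis no test between the conditions was possible, and the difference between pools cannot be told apart from the difference between conditions.

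Counted by clonotypes, so that each clone counts once, the shares were nearly the same. They were 7.79% in dataset 1 (12 of 154, interval 4.09 to 13.2), 9.03% in dataset 2 (14 of 155, 5.03 to 14.7) and 15.2% without uveitis (72 of 473, 12.1 to 18.8). The interval of each uveitis library overlapped that of the library without uveitis. Over both uveitis libraries 26 of 309 clonotypes, or 8.41%, used TRAV7 (5.57 to 12.1). Among the V families, TRAV7 had the most clonotypes of all 18 families without uveitis. In dataset 1 it tied for 4th place and in dataset 2 it was in 4th place, after TRAV9, TRAV12 and TRAV6 in both.

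**Figure D1:**
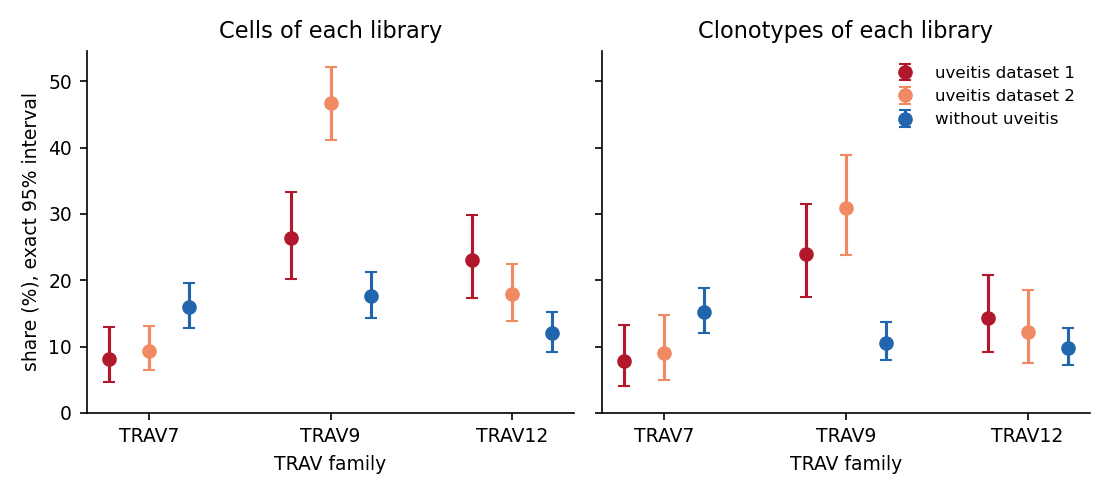
Share of cells with a productive TRA (left) and of clonotypes (right) that used the TRAV7, TRAV9 and TRAV12 families, in percent, for the 3 libraries. Points are the shares and bars the exact 95% intervals. TRAV7 lay at 8.06 and 9.39% of cells in the uveitis libraries and at 15.9% without uveitis, while the TRAV9 and TRAV12 shares were higher in both uveitis libraries.

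The 2 largest families of the uveitis libraries had the opposite order. TRAV9 was on 26.3 and 46.7% of cells with uveitis and on 17.6% without, and TRAV12 was on 23.1, 17.9 and 12.0%. By clonotypes TRAV9 had 24.0, 31.0 and 10.6%, so that it too held this order when clones were counted once. For TRAV12 the clonotype shares were closer, at 14.3% (9.17 to 20.8), 12.3% (7.54 to 18.5) and 9.73% (7.21 to 12.8), and their intervals overlapped. TRAV6, however, went the same way as TRAV7, on 16 of 186 and 22 of 330 cells with uveitis and 76 of 483 without. By clonotypes TRAV6 had 15 of 154, 17 of 155 and 68 of 473. A lower share with uveitis was thus not particular to TRAV7. The shares of the families are parts of one total in each library.

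The share of dataset 1 depended on cells with several chains. When only cells with exactly 1 productive TRA and 1 productive TRB were kept, as in 416 uveitis cells and 375 cells without uveitis, TRAV7 was on 5 of 147 cells of dataset 1, or 3.40%. It was on 26 of 269 cells in dataset 2 (9.67%) and on 55 of 375 without uveitis (14.7%). The order of the conditions was the same.

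TRAV7 cells without uveitis rarely belonged to expanded clones. A clonotype was counted as expanded when more than 1 cell of its library carried it. Of the paired TRAV7 cells without uveitis, 6 of 75 were in expanded clonotypes, which is 8.0% (2.99 to 16.6). All other TRA gave 19.9% there (16.2 to 24.1), TRAV12 gave 28.6% (17.3 to 42.2) and TRAV9 gave 46.9% (35.7 to 58.3). The interval of TRAV7 lay below those of TRAV9 and TRAV12 and overlapped that of all other TRA. TRAV9 supplied 38 of the 82 expanded cells of all other TRA there, and its largest clonotype had 18 cells.

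With uveitis the 2 libraries were far apart. In dataset 1, 3 of 14 paired TRAV7 cells were in an expanded clonotype (21.4%, 4.66 to 50.8), and in dataset 2, 21 of 30 were (70.0%, 50.6 to 85.3). The mean was 45.7% ± 34.3 (SD, n = 2), and the uveitis libraries differed more from each other than dataset 1 did from the library without uveitis. All other TRA had 31.0 and 70.5%, so that TRAV7 followed the rest of each uveitis library. Combined, 24 of 44 TRAV7 cells were expanded (54.5%, 38.8 to 69.6), a value that fell to 21.4% without dataset 2 and rose to 70.0% without dataset 1.

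**Figure D2:**
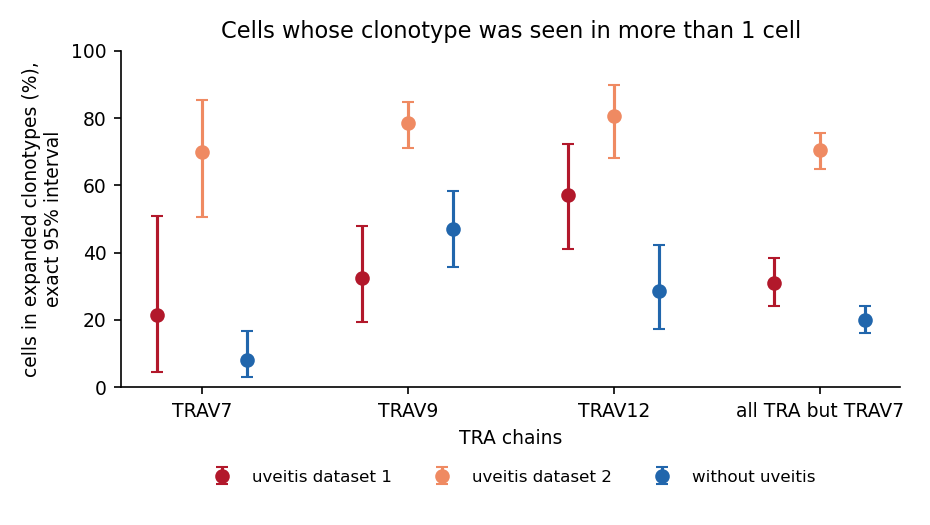
Share of paired cells in clonotypes of more than 1 cell, in percent, for TRAV7, TRAV9, TRAV12 and all TRA chains but TRAV7 in the 3 libraries. Points are shares and bars exact 95% intervals. Among the groups shown, the library without uveitis has its lowest point at TRAV7, at 8.0%. In dataset 2 TRAV7 (70.0%) is beside all other chains (70.5%).

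Only 8 TRAV7 clonotypes were expanded, 1 of 12 in dataset 1, 5 of 14 in dataset 2 and 2 of 72 without uveitis. Together they used 6 of the 11 genes. In each case the TRB used a J gene of the TRBJ2 cluster (interval 63.1 to 100). This compares with 55 of the 90 TRAV7 clonotypes seen in 1 cell (50.3 to 71.2), and the intervals overlapped. Among all other TRA, TRBJ2 genes were in 56 of 79 expanded and 420 of 605 single-cell clonotypes.

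The largest TRAV7 clonotype was a TRAV7-1 clone of dataset 2. It joined TRAV7-1 to TRAJ33 and paired with TRBV13-1 and TRBJ2-7 in 11 cells, which were 35.5% of the TRAV7 cells and 3.33% of all cells with a TRA in that library. Its TRA contigs had 1 to 13 UMIs with a median of 6, and its TRB contigs had 5 to 20 with a median of 11. No cell of the clone had another productive TRA. The CDR3 bases are printed with those matching neither germline V nor J in capitals. TRB D segments were not matched, so the capitals of a CDR3β can include D bases.
TRAV7-1/TRAJ33 CDR3α: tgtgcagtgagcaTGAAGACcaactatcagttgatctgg
TRBV13-1/TRBJ2-7 CDR3β: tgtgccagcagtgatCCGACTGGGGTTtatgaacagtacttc
The α chain kept the whole V end of 13 bases and had 7 inserted bases and 19 bases of TRAJ33, giving a CDR3α of 13 amino acids and a CDR3β of 14.

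TRAV7-1 was otherwise a gene of single cells, except for a clone without uveitis. In dataset 1 it was in 1 cell, with TRAJ23, TRBV13-1 and TRBJ2-3, and without uveitis it was in 8 cells of 5 clonotypes. The expanded clonotype among these had 4 cells, with 4, 8, 15 and 20 TRA UMIs, and none of them had another productive TRA.
TRAV7-1/TRAJ37 CDR3α: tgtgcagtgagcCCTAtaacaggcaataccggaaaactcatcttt
TRBV20/TRBJ2-5 CDR3β: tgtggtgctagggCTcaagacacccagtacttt
By cells TRAV7-1 made up 12 of 46 TRAV7 cells with uveitis (26.1%, 14.3 to 41.1) and 8 of 77 without (10.4%, 4.59 to 19.4). By clonotypes it was 2 of 26 (7.69%, 0.946 to 25.1) and 5 of 72 (6.94%, 2.29 to 15.5). The single clone of 11 cells therefore carried the difference by cells.

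TRAV7D-3 was the gene of the expanded clonotype of dataset 1. It joined TRAJ9 and paired with TRBV3 and TRBJ2-5 in 3 cells, with 4, 12 and 13 TRA UMIs.
TRAV7D-3/TRAJ9 CDR3α: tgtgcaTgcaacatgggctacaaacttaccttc
TRBV3/TRBJ2-5 CDR3β: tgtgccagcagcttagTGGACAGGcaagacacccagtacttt
The CDR3α of 11 amino acids kept only 6 V bases and had 1 inserted base. All 3 cells also had a productive TRAV13D-3/TRAJ16 chain, with 3 to 5 UMIs, which was in no other cell of the library. In addition, a cell of dataset 1 with the same TRB had TRAV3-3/TRAJ44 and TRAV9-4/TRAJ56 in place of these TRA chains. A further cell had the same TRAV7D-3 chain, by 4 UMIs, with TRBV15/TRBJ1-1 and with TRAV9-4/TRAJ40. Thus the TRAV7D-3/TRAJ9 chain was in 4 cells with 2 different TRB chains. Which of the chains bound the tetramer was not tested, nor was whether the 2 odd cells shared droplets with others.

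TRAV7D-3 was found in 5 cells and 3 clonotypes in all. Its 2 other clonotypes were that cell of dataset 1 and 1 cell without uveitis with TRAJ21, TRBV31 and TRBJ1-2. No cell of dataset 2 had it, where its near copy TRAV7-3 was in 4 cells of 4 clonotypes.

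Dataset 2 had 4 smaller expanded TRAV7 clonotypes, 2 of which used TRAV7D-4.
TRAV7D-4/TRAJ11 CDR3α: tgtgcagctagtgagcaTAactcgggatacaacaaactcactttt
TRBV13-1/TRBJ2-1 CDR3β: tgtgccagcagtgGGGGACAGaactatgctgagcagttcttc
TRAV7D-4/TRAJ23 CDR3α: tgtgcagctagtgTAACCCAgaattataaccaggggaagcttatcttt
TRBV20/TRBJ2-7 CDR3β: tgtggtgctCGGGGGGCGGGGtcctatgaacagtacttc
Each was in 3 cells, with TRA counts of 1, 10 and 27 UMIs in the TRAJ11 clonotype and of 1, 5 and 8 UMIs in the TRAJ23 clonotype. The TRAJ11 clonotype had TRAV10/TRAJ30 beside TRAV7D-4 in 2 of its 3 cells, whereas the TRAJ23 clonotype had no other TRA. A TRAV7-5/TRAJ32 clonotype with TRBV3/TRBJ2-2 was in 2 cells, both of which also had TRAV5-4/TRAJ34.

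The TRAV7N-4/TRAJ31 clonotype of dataset 2 was called from few molecules. Its 2 cells had 2 TRA UMIs each, and its TRB, TRBV13-2/TRBJ2-1, was found in 2 further cells with TRAV6-6/TRAJ31, by 1 and 2 UMIs. No cell had both TRA chains. Without uveitis the second-largest clonotype joined TRAV7-4 to TRAJ34 with TRBV20/TRBJ2-5 in 2 cells, both of which also had TRAV12-1/TRAJ42.

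The genes of the family were spread over the clonotypes of every library. TRAV7D-2 was the most used gene without uveitis, with 19 of 72 clonotypes (26.4%, 16.7 to 38.1), each in 1 cell. With uveitis it had 3 of 26 clonotypes (11.5%, 2.45 to 30.2). TRAV7-4 followed with 12 clonotypes without uveitis and 3 with uveitis. TRAV7-3 had 5 and 5 clonotypes without and with uveitis, TRAV7D-4 had 6 and 4, and TRAV7-5 had 5 and 3. TRAV7N-6 had 4 and 2 clonotypes, and TRAV7D-5 and TRAV7N-4 had 4 and 1 each. TRAV7-6 was in 7 cells of 7 clonotypes without uveitis but in 0 of 26 clonotypes of diseased mice. That count allows up to 11.5%, so a difference was not detectable at this depth.

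Copies marked D or N carried about as many clonotypes as the genes without a letter. They held 50.0% of the TRAV7 clonotypes in each uveitis library and 52.8% without uveitis. Over all libraries 22 of the 98 clonotypes were assigned to TRAV7D-2, which differs at 1 base from TRAV7-2, a gene that was never assigned. The shares of the copies thus depend on uncertain assignments. By cells the shares were 60.0% (32.3 to 83.7), 38.7% (21.9 to 57.8) and 48.1% (36.5 to 59.7), and all 3 intervals overlapped.

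**Figure D3:**
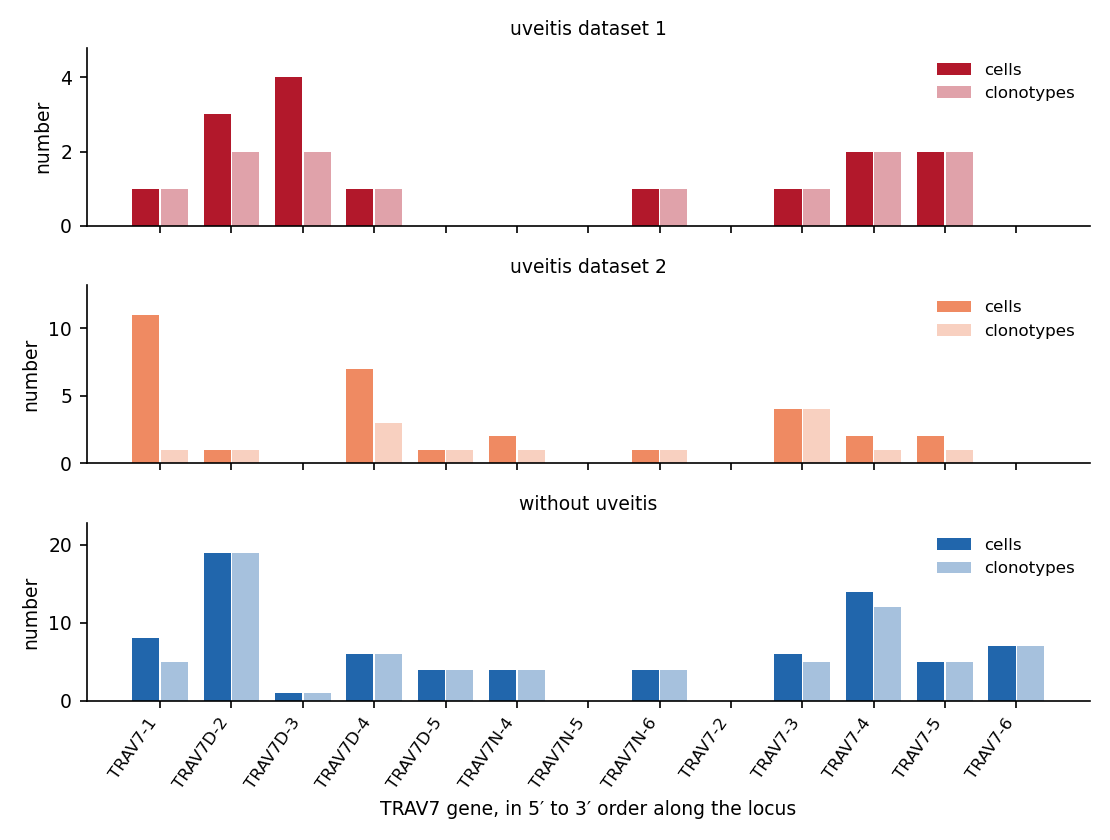
Number of cells (dark bars) and clonotypes (light bars) with each of the 13 annotated TRAV7 genes, in their order along chromosome 14, for each library on its own scale. In dataset 2 the TRAV7-1 bar shows 11 cells for 1 clonotype, while without uveitis the TRAV7D-2 bars show 19 cells for 19 clonotypes. TRAV7N-5 and TRAV7-2 were not assigned.

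TRAV7 joined many TRAJ genes, 10 in each uveitis library and 31 without uveitis, and 35 in all. The most used by clonotypes were TRAJ17, TRAJ23 and TRAJ9 with 2 of 12 clonotypes each in dataset 1, and TRAJ11, TRAJ12, TRAJ22 and TRAJ32 with 2 of 14 each in dataset 2. Without uveitis TRAJ23, TRAJ27 and TRAJ37 had 6 of 72 each (8.33%), where all other TRA had 4.99, 2.99 and 5.49%. TRAJ23 was the most used TRAJ gene over all libraries, with 9 of 98 TRAV7 clonotypes (9.18%) against 33 of 684 for all other TRA (4.82%).

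The choice of TRAJ varied with the place of the V gene in the locus. TRAV7-6, the gene nearest to the J segments, was joined only to TRAJ genes from TRAJ44 to TRAJ56. These lie at the near end of the J cluster, 46.8 to 61.3 kb upstream of Trac, with a median of 52.9 kb over the 7 clonotypes. TRAV7-5, the next gene upstream, reached from 34.4 to 55.2 kb, with a median of 37.4 kb over 8 clonotypes. The medians of the other 9 genes were 11.1 to 30.7 kb. Non-TRAV7 genes that lie between TRAV7-6 and the J cluster had a median of 51.8 kb (35 clonotypes), and those upstream of TRAV7-1 had 16.1 kb (9 clonotypes).

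Over the 98 TRAV7 clonotypes Spearman's rho between the distances of V and J from Trac was -0.324, and it was -0.400 over the 684 other TRA clonotypes. Without the 7 TRAV7-6 clonotypes, which were all from the library without uveitis, it was -0.168 for TRAV7. Within the libraries it was -0.458 in dataset 1 (12 clonotypes) and -0.133 in dataset 2 (14 clonotypes), which held no TRAV7-6, and in the library without uveitis it was -0.351 with TRAV7-6 and -0.134 without it. Clonotypes of one library share mice and sequencing, and the correlation is given as a description. Median J distances of TRAV7 were 24.4 and 24.7 kb in datasets 1 and 2, and 32.6 kb without uveitis, a value that fell to 28.9 kb once the TRAV7-6 clonotypes were left out. For all other TRA it was 32.6 kb in each library.

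**Figure D4:**
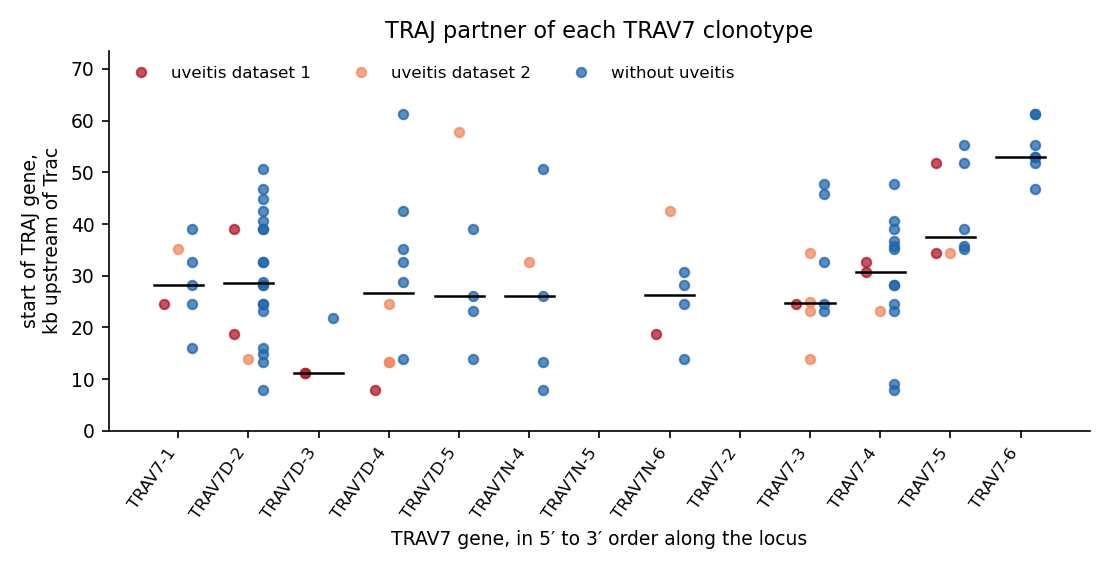
Distance from the start of the TRAJ gene to Trac in kb, for each of the 98 TRAV7 clonotypes, with the V genes in their 5′ to 3′ order. Points are coloured by library and black lines mark the median of a gene. All TRAV7-6 points lie between 46.8 and 61.3 kb, while genes further upstream reach from 7.83 to 61.3 kb.

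The β chains paired with TRAV7 were diverse, with 8 TRBV genes in each uveitis library and 19 without uveitis. The most used by clonotypes were TRBV2, TRBV20 and TRBV3 in dataset 1, TRBV20, TRBV13-1 and TRBV3 in dataset 2, and TRBV13-1, TRBV13-2 and TRBV2 without uveitis. TRBV13-1 took a larger share with TRAV7 than with all other TRA in each library. It was in 1 of 12 TRAV7 clonotypes of dataset 1 (8.33%), 3 of 14 in dataset 2 (21.4%) and 7 of 72 without uveitis (9.72%), against 2.82, 2.84 and 3.24% for all other TRA. Within each library the intervals of TRAV7 and of all other TRA overlapped. Over all libraries TRBV13-1 was in 11 of 98 (11.2%, 5.74 to 19.2) against 21 of 684 (3.07%, 1.91 to 4.65), and these pooled intervals did not overlap. They treat every clonotype as independent, although 2 of the 3 in dataset 2 had the same TRAV7D-4/TRAJ11 chain. TRBV13-1 was also picked out from all the TRBV genes compared, and the intervals do not allow for that choice.

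The other members of the TRBV13 family did not share this difference. The whole family was in 22 of 98 TRAV7 clonotypes (22.4%) and 21.2% of the others. TRBV20 was in 28.6% of the TRAV7 clonotypes of dataset 2 (8.39 to 58.1) and 10.6% of the others there, but in 5.56 and 6.23% without uveitis. The TRBV12 family was in 0 of 98 TRAV7 clonotypes, which allows a share of up to 3.06%, and in 3.07% of all other TRA clonotypes.

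The TRBJ partners differed little from those of other chains where the numbers were large. Without uveitis TRBJ2-5 led with 15 of 72 TRAV7 clonotypes (20.8%) against 14.7% of the others, followed by TRBJ2-7 (16.7 against 19.0%) and TRBJ1-1 (11.1 against 9.23%). TRBJ1-4 tied with TRBJ1-1 there. In dataset 1 TRBJ1-1 and TRBJ2-7 had 3 of 12 clonotypes each, and TRBJ1-2, TRBJ2-3 and TRBJ2-5 had 2 each. In dataset 2 TRBJ2-1 had 4 of 14, and TRBJ1-1 and TRBJ2-7 had 3 each. TRBJ1-1 was in 25.0, 21.4 and 11.1% of the TRAV7 clonotypes and in 4.93, 8.51 and 9.23% of the others.

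CDR3α of TRAV7 was close in length to that of other chains. Its median by cells was 13 amino acids in dataset 1 (range 11 to 15), 13 in dataset 2 and 14 without uveitis, counted from the cysteine to the last residue of the loop as the files give it. By clonotypes it was 14 in each library, and all other TRA had 13, 13 and 14. The shortest, of 5 amino acids, was in 1 clonotype without uveitis with TRAV7-6 and TRAJ44. Matching to the germline gave it 11 V bases and only 4 J bases. TRAV7D-2 with the same TRAJ44 had 15 amino acids and 26 J bases. The short loop ended inside the J bases of that loop and lacked its last bases. Whether the short loop is complete was not tested. CDR3β paired with TRAV7 had medians of 13.5, 14 and 14 amino acids.

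**Figure D5:**
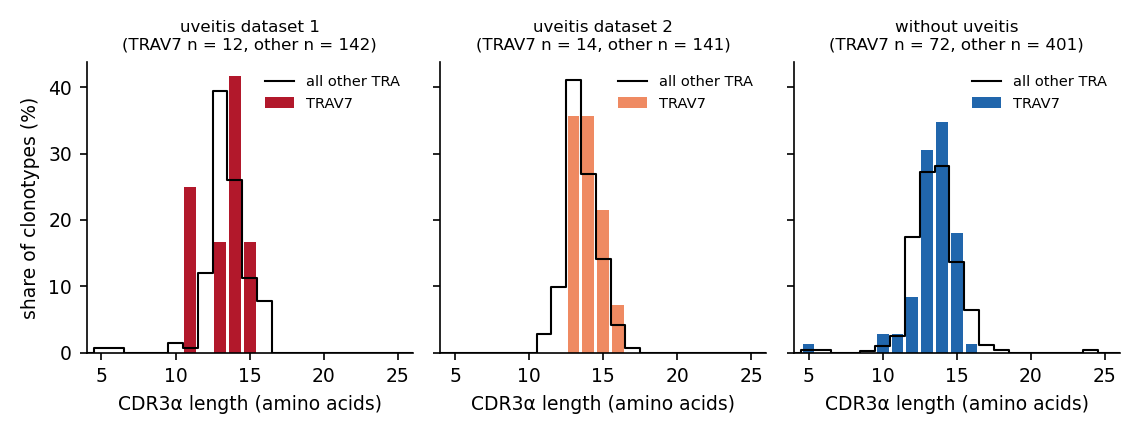
Length of CDR3α in amino acids against the share of clonotypes in percent, for TRAV7 (bars) and all other TRA (black line) in each library. The TRAV7 clonotypes have a median of 14 in each panel. In dataset 1 a second group of bars stands at 11 residues, with 3 of 12 clonotypes.

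The joints of TRAV7 had about as many added bases as those of other chains. The median number of bases that matched neither germline segment was 1.5 and 2.5 in the uveitis datasets and 3.0 in the other library, and 3 for all other TRA in each library. No such base was found in 15 of 98 TRAV7 joints (15.3%, 8.83 to 24.0) and in 12.7% of the others (10.3 to 15.5). The whole V end was kept less frequently in TRAV7, in 26 of 98 clonotypes (26.5%, 18.1 to 36.4), than in all other TRA, in 257 of 684 (37.6%, 33.9 to 41.3), with intervals that overlapped.

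A short junction recurred in the family. Of the 46 clonotypes with the V end of TRAV7-1, 13 kept it whole, and 10 of those 13 went on with TG. In the line below, capitals mark the bases after the V end, whatever their source.
shared start: tgtgcagtgagcaTG
In 8 of the 10 the TG lay outside the match to TRAJ, and in the other 2, both with TRAJ23, it was within that match. These 10 clonotypes had 6 different V genes and 9 different TRAJ genes, and 9 of them were without uveitis. The other was the TRAV7-1 clone of 11 cells in dataset 2. No other TRA chain began with these bases. The first 13 of them are the germline end of 8 TRAV7 genes, so that this absence does not bear on the TG. TG is the reverse complement of the last 2 bases of this V end, and such bases followed a whole V end in 13 of 26 TRAV7 clonotypes (50.0%, 29.9 to 70.1) and in 94 of 257 others (36.6%, 30.7 to 42.8). Counting only bases outside the match to TRAJ, this was so in 10 of 26 TRAV7 clonotypes (38.5%, 20.2 to 59.4) and 88 of 257 others (34.2%, 28.5 to 40.4), and the intervals overlapped widely. The recurring start was noticed after the sequences were seen.

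No CDR3α of TRAV7 was found in more than 1 library. Of the 99 distinct CDR3α amino acid sequences, 3 were paired with more than 1 CDR3β, and 1 of these 3 was made by 2 TRAV7 genes. That was the TRAJ23 joint of TRAV7-1 and TRAV7N-6, in 1 cell each without uveitis and with the same bases. The same amino acids came from TRAV9D-1 in a further cell, with 1 base changed.
TRAV7-1 and TRAV7N-6: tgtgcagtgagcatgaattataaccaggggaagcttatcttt
TRAV9D-1: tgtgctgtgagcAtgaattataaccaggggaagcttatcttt
The β chains of these 3 cells were unlike each other, with TRBV15, TRBV5 and TRBV13-3.

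The other CDR3α sequences with more than 1 CDR3β were that of TRAV7D-3/TRAJ9 in dataset 1, described above, and that of TRAV7D-4/TRAJ11 in dataset 2. The TRAV7D-4 chain had the same bases in 4 cells. Besides the clonotype of 3 cells, 1 cell with 5 TRA UMIs paired it with another TRBV13-1/TRBJ2-1 chain, whose CDR3β differed at 3 bases and 1 amino acid.
CDR3β of the 3 cells: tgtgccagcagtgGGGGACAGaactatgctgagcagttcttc
CDR3β of the other cell: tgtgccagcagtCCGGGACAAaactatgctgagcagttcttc

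Altogether 8 of the 99 CDR3α sequences were also made by a V gene of another family, for 5 of them in another library. In dataset 2 a pair of clonotypes was alike in both chains. TRAV7-3/TRAJ12, in 1 cell with 2 TRA UMIs, and TRAV3-1/TRAJ12, in 2 cells, had the same CDR3α amino acids from bases that differed at 3 places. Both paired with TRBV3 and TRBJ1-1, and their CDR3β differed at 1 base and 1 amino acid.
TRAV7-3 CDR3α: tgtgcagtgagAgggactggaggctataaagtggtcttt
TRAV3-1 CDR3α: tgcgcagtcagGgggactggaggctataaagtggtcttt
CDR3β with TRAV7-3: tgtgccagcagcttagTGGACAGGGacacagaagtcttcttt
CDR3β with TRAV3-1: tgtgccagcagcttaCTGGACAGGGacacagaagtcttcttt
The first 24 bases of the CDR3β with TRAV7-3 were also those of the TRAV7D-3 clonotype of dataset 1, although the 2 chains used different TRBJ genes. Its lower-case bases match germline TRBV3, and its capitals were not compared with D segments, so much of it may be germline. Among TRAV7 clonotypes this start was in 1 of 12 in dataset 1, 1 of 14 in dataset 2 and 0 of 72 without uveitis. Among all other TRA it was in 3 of 142, 0 of 141 and 0 of 401 clonotypes, and those 3 were the other TRA chains of the 4 cells with the TRB of the TRAV7D-3 clonotype. These pairs were picked out after their sequences were seen, and how often other chains form such pairs was not tested.

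Cells with TRAV7 frequently had another productive TRA in dataset 1. This was so in 9 of 15 TRAV7 cells (60.0%, 32.3 to 83.7), against 10 of 171 cells without TRAV7 (5.85%, 2.84 to 10.5). A cell with several TRA chains has more chances to hold a given family, so the cells of other families are the closer comparison. In dataset 1 another TRA was in 8.16% of TRAV9 cells (2.27 to 19.6) and 9.30% of TRAV12 cells (2.59 to 22.1), and both intervals lay below that of TRAV7. By clonotypes the values of dataset 1 were 7 of 12 (58.3%, 27.7 to 84.8) with TRAV7 and 20 of 135 in cells without TRAV7 (14.8%, 9.29 to 21.9). For all other TRA, which include the further chains of TRAV7 cells, it was 27 of 142 (19.0%, 12.9 to 26.4). The upper limit of that interval lay close to the lower limit of TRAV7.

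The other libraries did not show TRAV7 apart in this way. In dataset 2 another TRA was in 4 of 31 TRAV7 cells (12.9%, 3.63 to 29.8), 6.49% of TRAV9 cells and 6.78% of TRAV12 cells. Without uveitis it was in 18 of 77 TRAV7 cells (23.4%, 14.5 to 34.4), 12.9% of TRAV9 cells and 31.0% of TRAV12 cells. All of these intervals overlapped that of TRAV7 in the same library.

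The other TRA belonged to many families. Over all libraries TRAV13 and TRAV6 were found in 6 such TRAV7 cells each, and TRAV10 and TRAV12 in 4 each. In cells with more than 1 TRA, the TRAV7 chain had the most UMIs in 7 of 9 cells of dataset 1, 2 of 4 of dataset 2 and 13 of 19 chains without uveitis. A cell without uveitis had 2 TRAV7 chains.

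A TRB of a TRAV7 clonotype was at times also found in cells that lacked the TRAV7 chain. This held for 4 of 12 clonotypes in dataset 1 (33.3%, 9.92 to 65.1), 1 of 14 in dataset 2 (7.14%, 0.181 to 33.9) and 2 of 72 without uveitis (2.78%, 0.338 to 9.68). All other TRA gave 39.4, 16.3 and 8.73%. The clearest case was TRAV7N-6/TRAJ17 in dataset 1, seen in 1 cell, whose TRBV2/TRBJ2-7 chain was also in 5 cells with TRAV9-4/TRAJ31 or TRAV9N-4/TRAJ31. Doublets were not removed, and their part in these cells was not tested. More than 1 productive TRB was found in 0 of 15, 0 of 31 and 2 of 77 TRAV7 cells, and in 10 of 171, 29 of 299 and 16 of 406 cells without TRAV7. The counts of 0 allow shares of up to 20.0 and 9.68%, so a difference was not detectable at this depth.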

How the data were processed

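Single-cell TCR sequencing of P2 tetramer-binding CD4+ T cells was analysed in 3 libraries, 2 of mice with uveitis and 1 of mice without. The mRNA libraries of the same cells, 3 samples, were not used here. The deposited values are counts of reads and UMIs for each assembled contig, which the authors made from the 10x Chromium 5′ libraries with Cell Ranger and its mouse VDJ reference on GRCm38, without normalization. All contigs listed were of high confidence and from barcodes called as cells.

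Productive TRA contigs were selected by V gene name and paired with the productive TRB of the most UMIs, then of the most reads. Groups followed the sample titles and labels. Shares have exact Clopper-Pearson 95% intervals, and a count of 0 is given the limit of 3 counts. No test between conditions or over cells was made, since the condition without uveitis had 1 pool. The depth was 5302, 7439 and 21408 UMIs, and the interval of each share gives its precision. PCR copies were collapsed by UMI.

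Germline genes were read by name from the GENCODE annotation (release M21) and the genome of GRCm38, which held all 85 V and 43 J genes of TRA. The annotation may differ from the reference used for the contigs. V and J bases of a CDR3 were the longest germline match from each end, and the remainder was counted as inserted. Identity between genes was computed with edlib 1.3.9.post1. Python 3.11.15, pandas 2.3.3, scipy 1.17.1 and matplotlib 3.10.9 were used. A self-test on a simulated contig table of 500 cells and on direct calls of the interval and median functions recovered 11 of 11 known answers.

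Alternatives were the TRA of the most UMIs alone, contigs of at least 2 UMIs, cells with exactly 1 TRA and 1 TRB, paired cells as denominator, clonotypes by amino acids, merged D and N copies, clonotypes in place of cells, and leaving out each uveitis dataset. Named clonotypes were all expanded ones and all CDR3α shared by libraries or CDR3β, and named partners were the 3 most used of each library, ties broken by name. Partners tied for the last place were added after their values were seen. The members and lists were chosen with earlier results of these data known.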

Additional observations from a re-analysis of the deposited data

How the results depend on the processing

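The 20 values followed (share of cells, share of clonotypes, expanded share, CDR3α length and share of D or N copies, for each library and for the combined uveitis libraries) were recomputed under 9 settings. Of 98 recomputed values, 94 stayed within the exact interval of the reported value. This count is a weak check. Leaving out a uveitis dataset returned the value already reported for the other, which is no new computation. Merging the D and N copies left every value unchanged, and some intervals were wide. That of the expanded share in dataset 1 was 4.66 to 50.8. In dataset 1, keeping only cells with exactly 1 TRA and 1 TRB changed the TRAV7 share of cells to 3.40% and the expanded share to 0%. The construction of this setting removed the 3 expanded cells, which all had another TRA. Leaving out either uveitis dataset moved the combined expanded share between 21.4 and 70.0%, the combined share of cells between 8.06 and 9.39%, that of clonotypes between 7.79 and 9.03%, and that of D or N copies between 38.7 and 60.0%. The median CDR3α length of 13 did not move. No paired analysis was possible because the condition without uveitis had 1 library and no test was made.

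The depth limits small classes most: dataset 1 had 12 TRAV7 clonotypes, so that a gene seen in none of them may hold up to 25.0% of the family. With 1 pool without uveitis, mice, pool and condition cannot be told apart.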
